A study of Danio rerio with 16 samples.

Results

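The genes described here carry the names of 4 families of signalling molecules, Wnt, Fgf, Bmp and Hedgehog, and were measured in whole zebrafish (Danio rerio) embryos. They were chosen by symbol alone: names that begin with wnt, fgf or bmp followed by a digit, together with shha, shhb, ihha, ihhb and dhh. Receptors and binding proteins were left out. The rule found 77 of the 32513 rows of the deposited expression table, of which 25 were Wnt, 32 Fgf, 15 Bmp and 5 Hedgehog rows. The rows wnt8-2 and wnt8a held the same value in every library and were counted once, which left 76 genes. The name ligand holds for 66 of these, all of them genes for secreted signals. The other 10 encode different products: 7 intracellular Fgf homologous factors (fgf11a, fgf11b, fgf12a, fgf12b, fgf13a, fgf13b and fgf14), the extracellular metalloproteinases bmp1a and bmp1b, and the kinase bmp2k.

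The study had 4 groups of 4 libraries of total RNA. Embryos of the RFR groups received radiofrequency radiation (RFR) of 3.5 GHz at about 30 dBm between 6 and 48 hours post fertilization (hpf), and controls received none. Both kinds were collected at 120 hpf, days after the exposure had ended, or at 48 hpf, when it ended. The labels give no strain, no clutch and no number of embryos per library, so a p-value here weighs a difference against the scatter among libraries, and that scatter may be technical. RNA of whole embryos averages over all tissues, and a lower value from fewer cells of a type cannot be told apart from one with less RNA per cell.

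Libraries held 39603976 to 49232542 reads after the authors' filter, of which 66.19 to 71.78% mapped. Control 120 hpf replicate 1 had an rRNA share of 3.2%, where all other libraries had 0.15 to 0.3%. Age set the libraries apart along a first principal component with 83.1% of the variance. On that axis RFR 48 hpf replicate 1 fell among the 48 hpf controls, and the other 3 RFR libraries of that age were displaced towards 120 hpf. Markers of all 10 tissues looked for, from neurons and skeletal muscle to liver and intestine, were present, and 0 of the 51 markers stood at 0 throughout any group.

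All 4 families pattern the embryo. Wnt proteins are lipid-modified signals received by Frizzled receptors with Lrp5 or Lrp6 co-receptors, and Fgf ligands bind receptor tyrosine kinases. Bmp ligands signal through serine and threonine kinase receptors to Smad proteins, and their reach is set by secreted antagonists such as Noggin and Gremlin. Hedgehog proteins bind Patched, which frees Smoothened to act on Gli transcription factors. In fish embryos these signals lay out the body axes, the brain, the fins and the skeleton, and many of the same genes later serve in formed organs. The Fgf homologous factors are kin of the ligands by sequence, but stay inside the cell and are known mainly as partners of voltage-gated sodium channels in neurons.

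Most members were expressed at low to moderate level. Values are FPKM, read fragments scaled to the length of the transcript and to the mapped total of the library, which allow levels of different genes to be set side by side. Of the 76 genes, 22 had a mean below 1 FPKM in every group, 54 reached 1 FPKM in some group and 12 reached 10 FPKM. The 12 were the ligand genes wnt11r, wnt5b, shha, bmp3 and bmp4 and 7 of the 10 genes for other products (bmp1a, bmp2k, fgf12a, fgf12b, fgf13a, fgf13b and fgf14). Tests covered 69 members, those that reached 0.5 FPKM in 4 or more libraries. The other 7 (bmp10, bmp15, bmp7a, fgf9, wnt7ba, wnt8a and wnt9a) had group means of 0.0075 to 0.44 FPKM and were not tested. Among the tested members, 11 reached that level in 4 libraries only at 120 hpf (fgf11a, fgf11b, fgf19, fgf22, fgf23, fgf6b, fgf7, dhh, wnt2ba, wnt5a and wnt6a). Another 5 did so only at 48 hpf (wnt10a, wnt11, wnt3a, wnt6b and wnt8b). For these the age at which they were high also let them into the test, so their p-values between ages are not independent of the filter.

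Summed over a family, levels were lower at 120 hpf for Wnt, Bmp and Hedgehog and higher for Fgf. The summed Wnt level was 56.0 ± 1.69 FPKM in RFR and 57.1 ± 3.61 FPKM in control libraries at 120 hpf, against 69.4 ± 2.45 FPKM in RFR and 69.9 ± 2.27 FPKM in control libraries at 48 hpf (SD, n = 4 in each group). The summed Fgf level was 106.9 ± 7.06 FPKM in RFR and 110.3 ± 6.03 FPKM in control libraries at 120 hpf, against 89.5 ± 5.68 FPKM in RFR and 79.1 ± 3.99 FPKM in control libraries at 48 hpf. The summed Bmp level was 76.0 ± 1.28 FPKM in RFR and 78.2 ± 1.29 FPKM in control libraries at 120 hpf, against 88.3 ± 2.41 FPKM in RFR and 82.7 ± 3.6 FPKM in control libraries at 48 hpf. The summed Hedgehog level was 20.6 ± 0.844 FPKM in RFR and 21.8 ± 0.969 FPKM in control libraries at 120 hpf, against 27.5 ± 0.937 FPKM in RFR and 28.9 ± 2.34 FPKM in control libraries at 48 hpf. In each of these families the 120 hpf libraries did not overlap with those of 48 hpf. The Fgf and Bmp sums include products that are not ligands. Secreted Bmp ligands alone summed to 46.41 to 49.64 FPKM in controls at 120 hpf, against 47.84 to 53.55 FPKM at 48 hpf, with overlap. In RFR libraries these were 45.41 to 48.83 and 50.66 to 56.86 FPKM, apart. Secreted Fgf ligands summed to 40.33 to 46.4 FPKM in RFR at 120 hpf, against 36.52 to 42.14 FPKM at 48 hpf, with overlap. In controls these were 40.52 to 47.36 and 35.13 to 38.26 FPKM, apart. These sums were not tested. Intracellular homologous factors made up 59.9% (RFR) and 60.5% (control) of the Fgf sum at 120 hpf, and 56.7% (RFR) and 53.9% (control) at 48 hpf, so most Fgf-named RNA in these embryos was not for a secreted ligand. A single gene, wnt11r, held 36.8% (RFR) and 37.1% (control) of the Wnt sum at 120 hpf, and 28.0% (RFR) and 27.4% (control) at 48 hpf. In the table of NCBI RefSeq (assembly GRCz12tu, used for names and gene order only) wnt11r is now called wnt11, and the row named wnt11 is wnt11f2.

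**Figure D1:**
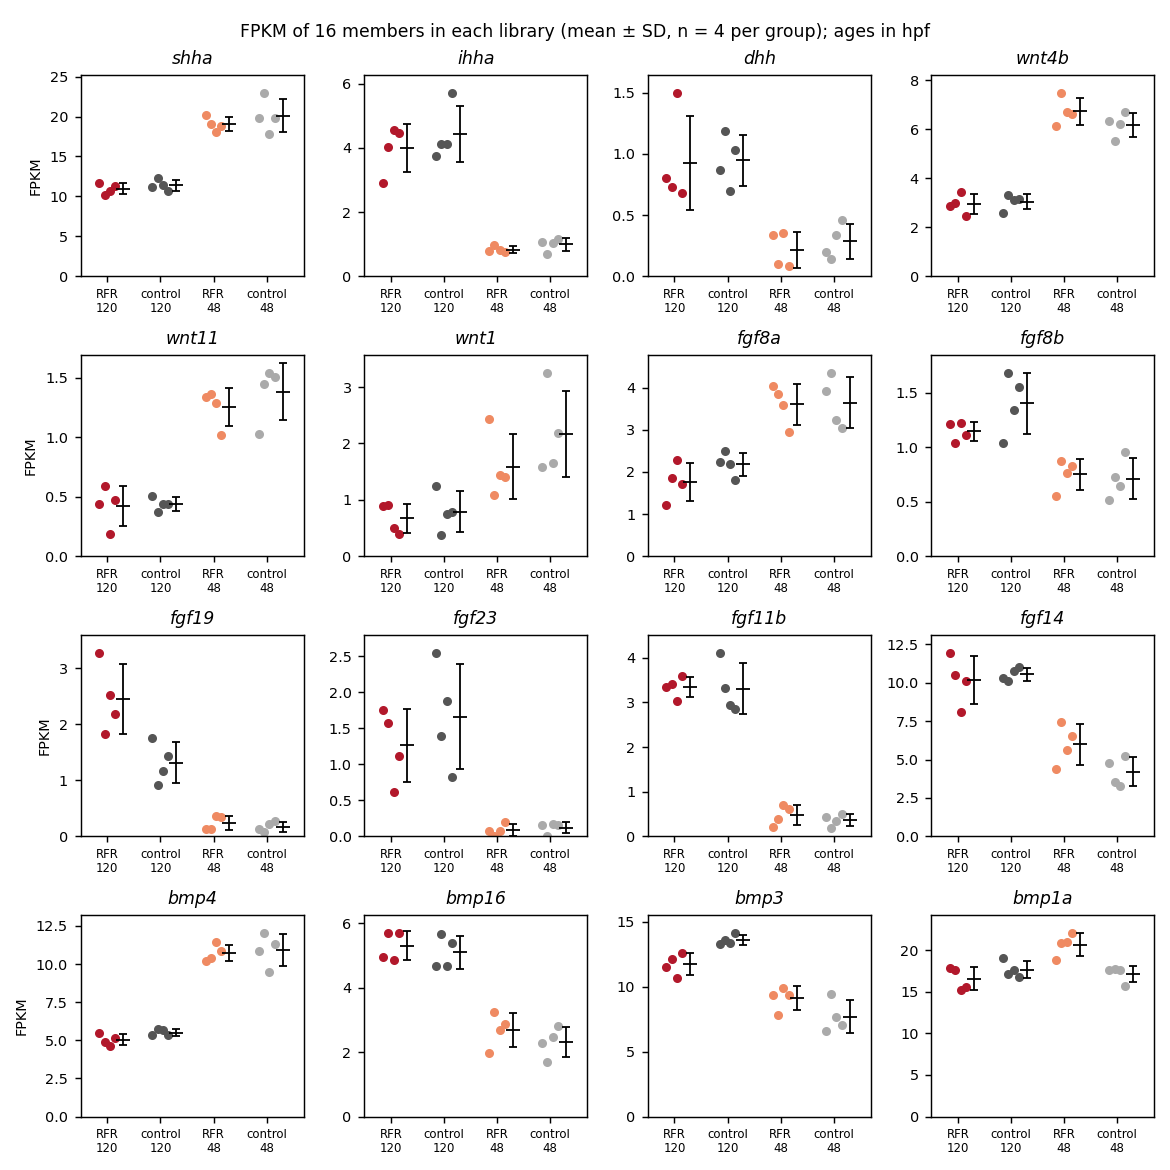
FPKM (vertical axis, from 0) of 16 members in each of the 16 libraries, by group: RFR 120 hpf, control 120 hpf, RFR 48 hpf and control 48 hpf. Points are libraries and bars the mean ± SD (n = 4); shha, wnt4b, wnt11, fgf8a and bmp4 stand lower and ihha, fgf11b, fgf19, fgf23 and bmp16 higher at 120 than at 48 hpf, while RFR and control libraries of one age mostly share a range.

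With age the Wnt genes leaned lower, and the Fgf, Bmp and Hedgehog genes went both ways. In controls, 20 of 69 tested members rose, against 38.3% of all 23026 genes tested, and 19 fell, against 27.9% (limma on log2(FPKM + 0.5), adjusted p under 0.05 over all genes). After RFR 18 members rose, with a background of 36.1%, and 25 fell, with a background of 29.2%. Among the members that rose in controls, dhh, fgf11b, fgf19, fgf22, fgf23, fgf7 and wnt6a reached 0.5 FPKM in 4 libraries only at 120 hpf. Among those that fell in controls, wnt11 did so only at 48 hpf. After RFR the same holds for dhh, fgf11b, fgf19, fgf23, fgf7 and wnt6a among the members that rose. Among those that fell after RFR, wnt11, wnt6b and wnt8b reached that level in 4 libraries only at 48 hpf. The median change of the members was -0.03 log2 units in controls and -0.16 after RFR, beside 0.124 and 0.0812 over all genes. The split depends on scaling: quantile normalization, which moved the median of all genes in controls to -0.139, gave 11 higher and 37 lower members in controls, and median-ratio scaling (median of all genes 0.0192) gave 18 and 22. All 19 members that fell were also called lower under both scalings, and 11 and 18 of the 20 that rose kept their call.

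The Hedgehog genes went both ways with age. The sonic hedgehog genes shha and shhb, signals of notochord, floor plate and fin buds, fell with age, while indian hedgehog a (ihha), a signal of cartilage and bone, and desert hedgehog (dhh), known from Schwann cells and gonads in mammals, rose. Expression of shha was 11.7, 10.1, 10.7 and 11.3 FPKM in RFR and 11.2, 12.3, 11.5 and 10.6 FPKM in control libraries at 120 hpf. At 48 hpf it was 20.2, 19.1, 18.0 and 18.9 FPKM in RFR and 19.8, 23.0, 17.9 and 19.9 FPKM in control libraries. Every 120 hpf library lay below every 48 hpf library, and within each age RFR and control libraries overlapped. The change of shha was -0.79 ± 0.0796 log2 units in controls (SE; limma adjusted p = 2.14e-07) and -0.77 ± 0.0796 after RFR (adjusted p = 2.96e-07). Its paralog shhb changed by -0.65 ± 0.0951 log2 units in controls (adjusted p = 1.54e-05).

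The ihha gene moved the other way: 2.91, 4.03, 4.57 and 4.48 FPKM in RFR and 3.74, 4.12, 4.13 and 5.72 FPKM in control libraries at 120 hpf. At 48 hpf it stood at 0.78, 0.97, 0.80 and 0.75 FPKM in RFR and 1.07, 0.70, 1.03 and 1.15 FPKM in control libraries. The change was 1.72 ± 0.152 log2 units in controls (limma adjusted p = 4.4e-08) and 1.75 ± 0.152 after RFR (3.74e-08). The share of ihha in the summed Hedgehog level was thus 19.3% (RFR) and 20.2% (control) at 120 hpf, and 3.0% (RFR) and 3.46% (control) at 48 hpf, while shha held 53.1% (RFR) and 52.2% (control) at 120 hpf, and 69.3% (RFR) and 69.5% (control) at 48 hpf. Low-level dhh averaged 0.927 ± 0.38 FPKM in RFR and 0.948 ± 0.211 FPKM in control libraries at 120 hpf, against 0.217 ± 0.149 FPKM in RFR and 0.285 ± 0.144 FPKM in control libraries at 48 hpf. Its change of 0.89 log2 units in controls (adjusted p = 0.0011) was 0.37 under quantile normalization, where the call was lost (0.109). It reached 0.5 FPKM in 4 libraries only at 120 hpf. The fifth member, ihhb, stayed between group means of 1.08 and 1.40 FPKM and passed no test between ages. Markers of tissues that make these signals were looked at too. The summed level of 5 notochord and floor plate markers in control libraries was 43.1 to 50.1 FPKM at 120 hpf, against 52.1 to 67.5 FPKM at 48 hpf, and 4 of the 5 fell. Of 5 cartilage markers 3 rose and 1 fell in controls, beside 38.3% and 27.9% of all genes. Their sums overlapped between ages, at 419 to 668 FPKM at 120 hpf, against 405 to 519 FPKM at 48 hpf. The part of these tissues in the Hedgehog values was not tested.

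Among the 21 tested Wnt genes 9 fell and 1 rose in controls, which is 42.9% and 4.76% beside 27.9% and 38.3% of all genes. After RFR 10 fell and 2 rose, beside 29.2% and 36.1%. Of those that fell, wnt11 (both groups), wnt6b and wnt8b (after RFR) reached 0.5 FPKM in 4 libraries only at 48 hpf. Of those that rose, wnt6a did so only at 120 hpf. The median change of the 21 Wnt genes was -0.35 log2 units in controls and -0.37 after RFR. It was -0.71 and -0.76 under quantile normalization. The members lower at 120 hpf in both groups were wnt1, wnt11, wnt16, wnt2bb, wnt3, wnt4b, wnt5b and wnt7aa. One of these was wnt4b, a Wnt of the floor plate: 2.87, 2.99, 3.43 and 2.46 FPKM in RFR and 2.58, 3.32, 3.12 and 3.15 FPKM in control libraries at 120 hpf. At 48 hpf wnt4b stood at 6.14, 7.48, 6.68 and 6.60 FPKM in RFR and 6.32, 5.51, 6.21 and 6.68 FPKM in control libraries, well above all 120 hpf libraries. It changed by -0.92 ± 0.104 log2 units in controls (limma adjusted p = 8.34e-07) and by -1.08 ± 0.104 after RFR (1.32e-07).

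Other Wnt genes with large falls were wnt1, the signal of the midbrain-hindbrain boundary, and wnt11, which guides cell movements of gastrulation. Expression of wnt1 averaged 0.67 ± 0.263 FPKM in RFR and 0.792 ± 0.356 FPKM in control libraries at 120 hpf, against 1.59 ± 0.583 FPKM in RFR and 2.17 ± 0.769 FPKM in control libraries at 48 hpf. Its change was -1.05 ± 0.247 log2 units in controls (limma adjusted p = 0.00141). For wnt11 the change was -0.99 ± 0.15 (adjusted p = 2.15e-05), with all 120 hpf libraries at or under 0.59 FPKM and all 48 hpf libraries at or over 1.02 FPKM. It reached 0.5 FPKM in 4 libraries only at 48 hpf. Of the abundant members, wnt5b, which steers cell movements in the tail and jaw, changed by -0.49 ± 0.106 (adjusted p = 0.000661). The neural wnt7aa changed by -0.35 ± 0.104 (adjusted p = 0.00713).

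The most abundant Wnt gene, wnt11r, which acts in muscle and heart, passed no test between ages. It stood at 20.02, 19.9, 20.5 and 22.1 FPKM in RFR and 17.8, 23.3, 22.6 and 21.2 FPKM in control libraries at 120 hpf. At 48 hpf it stood at 18.7, 18.7, 19.3 and 20.9 FPKM in RFR and 18.2, 18.6, 19.3 and 20.5 FPKM in control libraries. Without control 120 hpf replicate 1, the library with the high rRNA share, its change in controls was 0.22 log2 units (limma adjusted p = 0.0144), against 0.14 with it (0.136). No other setting gave a call. Over all settings the change went down to 0.0174 log2 units, and the limma adjusted p up to 0.874. The call of wnt16 in controls was lost without control 120 hpf replicate 1, 2 or 3 or control 48 hpf replicate 2 or 4 (highest adjusted p = 0.104). After RFR the call of wnt16 was lost without RFR 120 hpf replicate 2 or 4 or RFR 48 hpf replicate 1 or 4 (highest adjusted p = 0.117), and that of wnt2bb without RFR 120 hpf replicate 1 or RFR 48 hpf replicate 2 (0.0748). The 1 Wnt gene that rose in both groups, wnt6a, stayed under 1 FPKM in every library, and its calls were lost under quantile normalization (adjusted p = 0.486 in controls, 0.0618 after RFR).

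**Figure D2:**
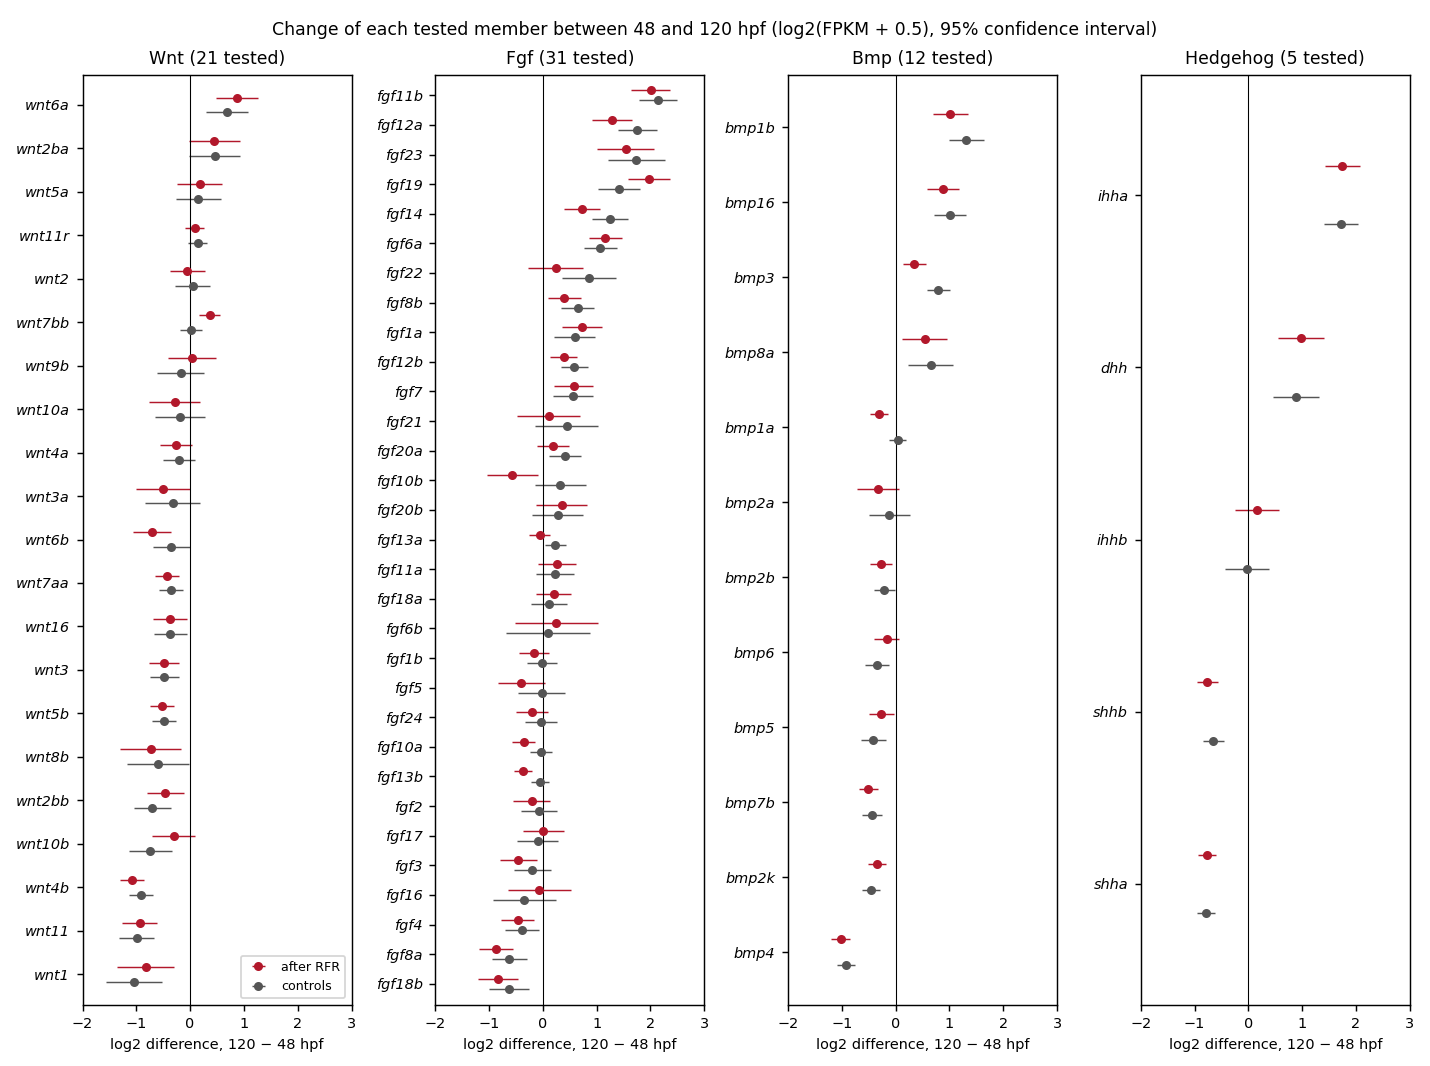
Change between 48 and 120 hpf (horizontal axis, log2 units, 120 minus 48 hpf) of each of 69 tested members, by family, after RFR (red, upper) and in controls (grey, lower), with 95% confidence intervals. Most Wnt genes lie left of 0, the Fgf family has the longest tail to the right, led by fgf11b at 2.14 in controls, and ihha and shha lie on opposite sides.

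Of 12 tested Bmp-named genes 4 rose and 5 fell in controls, beside 38.3% and 27.9% of all genes. After RFR 4 rose and 6 fell, beside 36.1% and 29.2%. The ligand bmp4, a signal of ventral fate, eye, heart and fins, fell to 5.46, 4.89, 4.62 and 5.18 FPKM in RFR and 5.33, 5.72, 5.66 and 5.33 FPKM in control libraries at 120 hpf. At 48 hpf it stood at 10.2, 10.4, 11.4 and 10.9 FPKM in RFR and 10.8, 12.02, 9.51 and 11.3 FPKM in control libraries, each above all 120 hpf libraries. The change was -0.92 ± 0.0809 log2 units in controls (limma adjusted p = 4.2e-08). The ligands bmp5, bmp6 and bmp7b fell by 0.41, 0.35 and 0.44 log2 units in controls, and the kinase gene bmp2k, which is named for its induction by BMP2, fell by 0.45. After RFR the call of bmp5 was lost without RFR 120 hpf replicate 1, 2 or 3 or RFR 48 hpf replicate 1, 2 or 3 (highest adjusted p = 0.147).

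Opposite to these, the ligands bmp16, bmp3 and bmp8a and the metalloproteinase gene bmp1b, whose product trims procollagens and the Bmp antagonist Chordin, rose. For bmp16 the values were 4.96, 5.69, 4.87 and 5.69 FPKM in RFR and 4.66, 5.68, 4.69 and 5.40 FPKM in control libraries at 120 hpf, against 1.96, 3.24, 2.70 and 2.87 FPKM (RFR) and 2.27, 1.69, 2.47 and 2.80 FPKM (control) at 48 hpf. No 120 hpf library of bmp16 overlapped with those of 48 hpf. It changed by 1.01 ± 0.14 log2 units in controls (limma adjusted p = 8.17e-06). The change of bmp1b was 1.32 ± 0.155 (adjusted p = 1.36e-06) and that of bmp3, an atypical Bmp that restrains Bmp signalling in mammalian bone, 0.79 ± 0.101 (3.29e-06). The rise of bmp8a (0.65 log2 units) was 0.12 under quantile normalization, where the call was lost (adjusted p = 0.608). Its call after RFR was lost without RFR 120 hpf replicate 1 or 4 or RFR 48 hpf replicate 2 (highest adjusted p = 0.0877).

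Of 31 tested Fgf-named genes 13 rose and 3 fell in controls, which is 41.9% and 9.68% beside 38.3% and 27.9% of all genes, and 10 rose and 7 fell after RFR, which is 32.3% and 22.6% beside 36.1% and 29.2%. The share that rose was thus near that of all genes. Of the 13 that rose in controls, fgf11b, fgf19, fgf22, fgf23 and fgf7 reached 0.5 FPKM in 4 libraries only at 120 hpf. All of these but fgf22 were also called higher after RFR. The counts depend on scaling, with 7 higher and 11 lower in controls under quantile normalization. Genes of both kinds rose in controls, 5 of 7 intracellular homologous factors and 8 of 24 tested secreted ligands, beside 38.3% of all genes. Quantile normalization lost the calls of the ligands fgf1a, fgf20a, fgf22, fgf7 and fgf8b and of the homologous factor fgf13a. The largest change of all members was that of the homologous factor fgf11b: 3.35, 3.40, 3.04 and 3.59 FPKM in RFR and 4.1, 3.32, 2.95 and 2.85 FPKM in control libraries at 120 hpf. At 48 hpf it stood at 0.22, 0.38, 0.70 and 0.61 FPKM in RFR and 0.44, 0.18, 0.35 and 0.50 FPKM in control libraries. It reached 0.5 FPKM in 4 libraries only at 120 hpf. The change was 2.14 ± 0.168 log2 units in controls (limma adjusted p = 1.09e-08). Like it, fgf12a, fgf14 and fgf12b rose by 1.76, 1.25 and 0.58 log2 units in controls, calls that held under both other scalings. The fifth, fgf13a, had a change of 0.23 (adjusted p = 0.0378); it was not called under quantile normalization (0.14), median-ratio scaling (0.323) or without control 120 hpf replicate 2 or 4 or control 48 hpf replicate 1, 2 or 3. Of 6 neuron markers 4 rose and 1 fell in controls, with sums of 747 to 811 FPKM at 120 hpf, against 469 to 539 FPKM at 48 hpf, and the part of neurons in these values was not tested.

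The endocrine ligands fgf19, fgf21 and fgf23 travel in blood and need Klotho co-receptors; in mammals they control bile acids, metabolism and phosphate. Of these, fgf19 and fgf23 rose, and both reached 0.5 FPKM in 4 libraries only at 120 hpf. The values of fgf23 were 1.75, 1.57, 0.62 and 1.12 FPKM in RFR and 2.54, 1.39, 1.87 and 0.83 FPKM in control libraries at 120 hpf, while all 48 hpf libraries lay at or under 0.20 FPKM and 2 were listed at 0. The change was 1.74 ± 0.248 log2 units in controls (limma adjusted p = 1.15e-05). For fgf19 it was 1.41 ± 0.186 in controls (4.59e-06) and 1.97 ± 0.186 after RFR (1e-07). The co-receptor genes kl and klb rose with them, by 1.14 and 1.18 log2 units in controls. In zebrafish fgf19 lies beside fgf4, and fgf23 beside fgf6b, in the RefSeq gene order; fgf4 fell by 0.39 log2 units in controls (adjusted p = 0.03) and fgf6b passed no test. The call of fgf4 was lost without control 120 hpf replicate 1 or 3 or control 48 hpf replicate 1 or 3 (highest adjusted p = 0.11). Among the paracrine ligands fgf6a, a muscle Fgf, rose by 1.06 ± 0.144 (6.35e-06), and fgf8a, the signal of the midbrain-hindbrain boundary, fell by 0.62 ± 0.15 (0.00168). The cartilage and bone ligand fgf18b fell by 0.63 ± 0.175 (0.00486).

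Among the members were 22 pairs whose symbols differ only in a last a or b, called copies here. These pairs were formed by symbol, so not all need stem from the gene duplication in fish. In 11 of them both copies had a mean of at least 1 FPKM in some group. In 5 of the 11 (fgf13, fgf18, fgf1, fgf8 and ihh) the copies had changes of opposite sign in controls. In 4 of these at least 1 copy (fgf13b, fgf18a, fgf1b or ihhb) passed no test in controls, and its sign turned under some settings. In 1 pair both were called: fgf8a fell, and fgf8b rose by 0.65 ± 0.144 log2 units (limma adjusted p = 0.00082). Under quantile normalization fgf8b changed by 0.12 and was not called (0.523), and its call after RFR was lost without RFR 120 hpf replicate 1 or RFR 48 hpf replicate 1 (highest adjusted p = 0.0786). The values of fgf8a were 1.21, 1.86, 2.28 and 1.71 FPKM in RFR and 2.23, 2.49, 2.19 and 1.82 FPKM in control libraries at 120 hpf, against 4.05, 3.85, 3.6 and 2.94 FPKM (RFR) and 3.93, 4.35, 3.23 and 3.05 FPKM (control) at 48 hpf. Those of fgf8b were 1.21, 1.04, 1.22 and 1.11 FPKM in RFR and 1.04, 1.68, 1.34 and 1.55 FPKM in control libraries at 120 hpf, against 0.55, 0.87, 0.76 and 0.83 FPKM (RFR) and 0.52, 0.73, 0.64 and 0.96 FPKM (control) at 48 hpf. Among the 11 pairs the largest differences in change between copies were those of ihha over ihhb, bmp1b over bmp1a and fgf8b over fgf8a. Reads of copies with similar sequence could be split between them, and the difference within a pair was not tested.

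**Figure D3:**
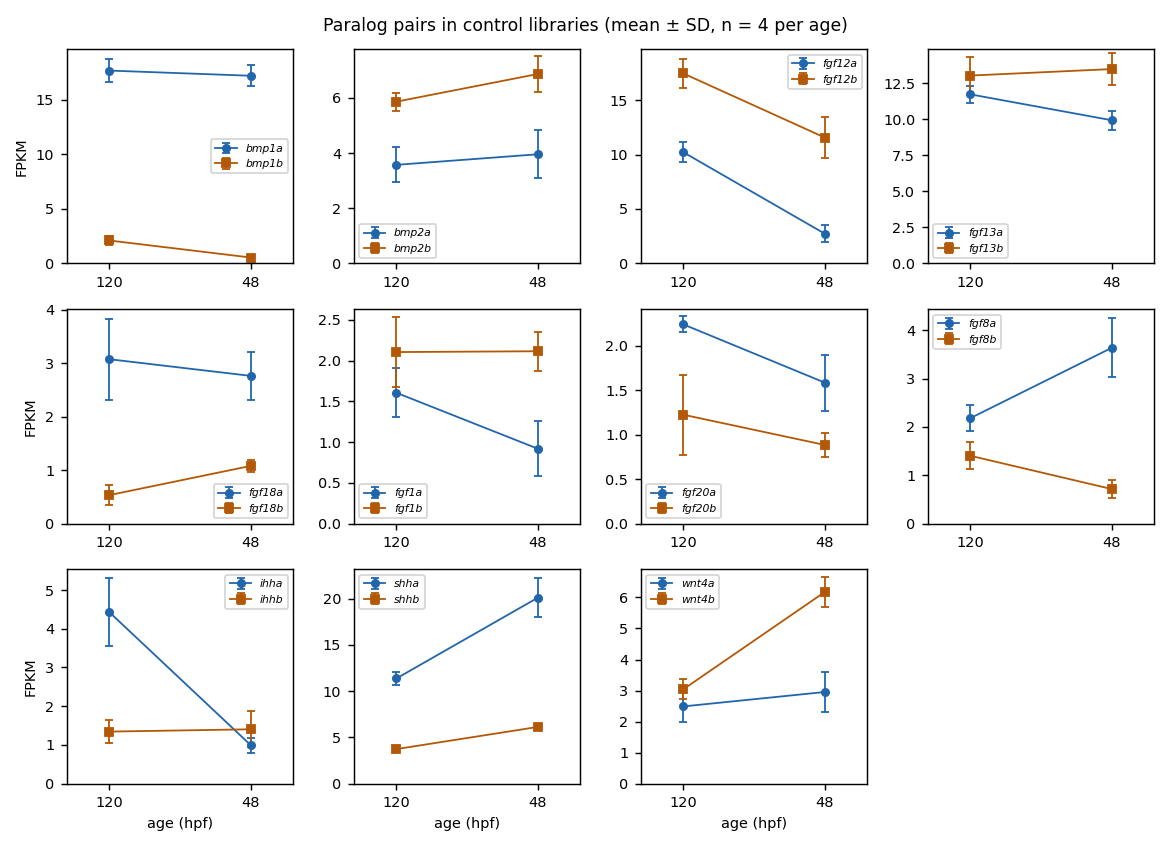
Mean FPKM ± SD (vertical axis, n = 4) of both copies of the 11 pairs in control libraries at 120 hpf (left) and 48 hpf (right). The lines of ihha and ihhb cross, those of fgf8a and fgf8b approach each other at 120 hpf, and bmp1a stays near 17 FPKM at both ages while bmp1b is higher at 120 hpf.

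At 48 hpf, when the exposure ended, 0 of 69 members passed the test between RFR and control (limma, adjusted p under 0.05), beside a background of 0.00434% (1 gene). At an unadjusted p under 0.05 there were 9 members, beside 9.47% of all genes. Of the 69, 41 had the higher mean in RFR, beside 60.5% of all genes, and the median difference was 0.05 log2 units, beside 0.0426. The 95% confidence interval of the median member reached 0.33 log2 units to either side. The lowest adjusted p among members was that of bmp1a, at 0.285. It stood at 18.8, 20.9, 21.0 and 22.1 FPKM in RFR and 17.6, 17.8, 17.6 and 15.8 FPKM in control libraries. The groups did not overlap, and the difference was 0.26 ± 0.0755 log2 units (SE). RFR libraries also lay wholly above controls for fgf13b and bmp7b (3 members in all, beside 3.0% of all genes) and wholly below for wnt7bb (1 member, beside 1.27%). The 1 below, wnt7bb, had 1.74, 1.52, 1.80 and 1.79 FPKM in RFR and 2.24, 2.11, 2.36 and 1.90 FPKM in control libraries (-0.26 ± 0.0943 log2 units; adjusted p = 0.374).

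Of the 9 members with an unadjusted p under 0.05, 4 were Fgf homologous factors, out of 7 tested, beside 9.47% of all genes. In 6 of the 7 the mean was higher in RFR, beside 60.5% of all genes, and 0 were called. Their median difference was 0.21 log2 units (0.18 and 0.15 under quantile normalization and median-ratio scaling), beside 0.0426 over all genes. For fgf14 the values were 4.36, 7.45, 5.62 and 6.52 FPKM in RFR and 4.76, 3.57, 3.30 and 5.23 FPKM in control libraries (0.46 ± 0.157 log2 units; limma adjusted p = 0.344). For fgf12a they were 2.53, 4.19, 4.55 and 4.07 FPKM in RFR and 3.51, 2.31, 1.87 and 3.21 FPKM in control libraries (0.43 ± 0.173; 0.419). In both genes RFR replicate 1 was the lowest RFR library and lay within the controls. The copies fgf13a and fgf13b differed by 0.22 and 0.21 (adjusted p = 0.448 and 0.377). All 6 neuron markers had the higher mean in RFR too, beside 60.5% of all genes. Their sums were 532 to 620 FPKM, against 469 to 539 FPKM in controls, with none at 0. The part of neurons in these values was not tested.

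Without RFR 48 hpf replicate 1 the count of called members was still 0, beside 1.69% of all genes (389 of 23026), and the lowest adjusted p values were 0.0607 (fgf14), 0.0643 (bmp1a) and 0.0686 (fgf12a). With all libraries the endocrine ligand fgf21 had the largest difference of the tested members, 0.74 ± 0.273 log2 units (adjusted p = 0.381), at means of 0.743 ± 0.244 FPKM in RFR and 0.262 ± 0.239 FPKM in control libraries, with 1 control library listed at 0. Further members named by small p were bmp3 (0.24 log2 units) and wnt10b (-0.41). For shha, the most abundant Hedgehog gene, the difference was -0.07 ± 0.0796, and for wnt11r it was 0.02 ± 0.0806.

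**Figure D4:**
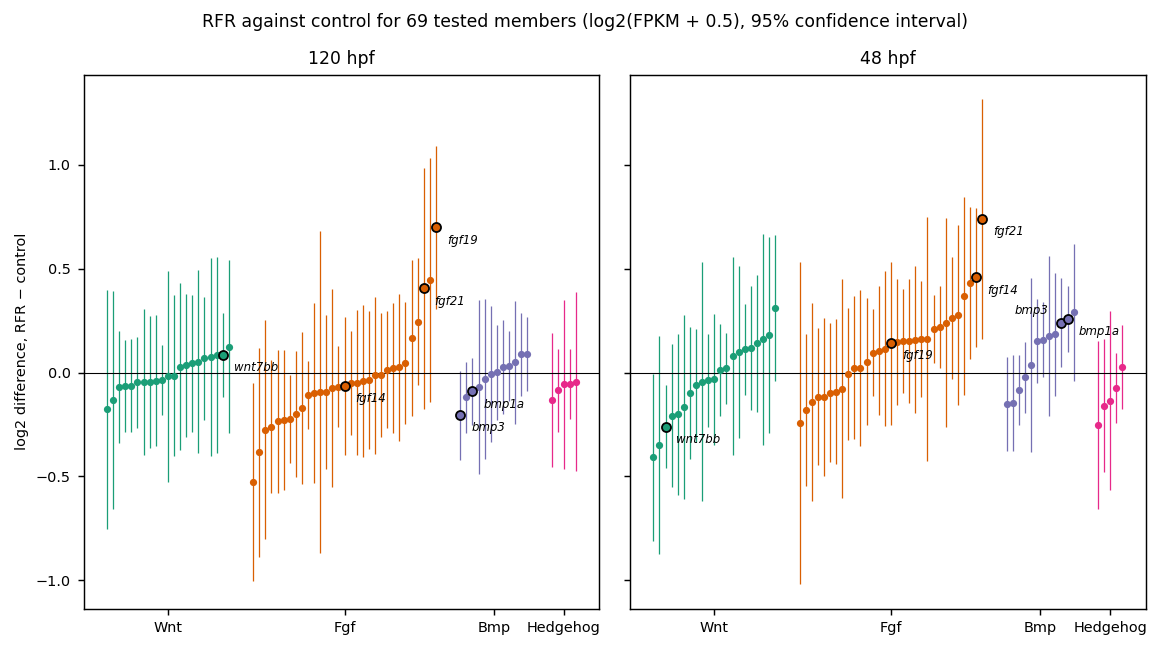
Difference between RFR and control libraries (vertical axis, log2 units, RFR minus control) of 69 tested members at 120 hpf (left) and 48 hpf (right), sorted within each family, with 95% confidence intervals; 6 members are outlined and named. Most intervals include 0, and 0 members were called at either age.

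At 120 hpf 0 of 69 members passed between RFR and control, as did 0.0% of all genes, and 3 members had an unadjusted p under 0.05, beside 4.13%. The mean was higher in RFR in 24 of 69, beside 48.9% of all genes. That number depended on the libraries used. It was 33 without control 120 hpf replicate 2, 30 with replicates 1 to 3 only and 22 without control 120 hpf replicate 3. The member with the smallest p was fgf19, with 3.27, 1.82, 2.53 and 2.18 FPKM in RFR and 1.75, 0.91, 1.16 and 1.44 FPKM in control libraries. All 4 RFR libraries lay above all 4 controls, which held for 0.886% of all genes. The difference was 0.70 ± 0.186 log2 units (unadjusted p = 0.0017, limma adjusted p = 0.729). Over 27 other settings the adjusted p ranged from 0.479 to 1. Its neighbour fgf4 differed by 0.02 ± 0.147. In RFR libraries bmp3 lay wholly below the controls (beside 1.22% of all genes), at 11.5, 12.1, 10.6 and 12.6 FPKM, against 13.2, 13.6, 13.4 and 14.1 FPKM in control libraries (-0.21 ± 0.101; adjusted p of 1). The ligands fgf10a, fgf8a, fgf2, fgf3 and bmp4 had differences of -0.22, -0.26, -0.23, -0.23 and -0.12 log2 units, and fgf6a one of 0.25. All 5 Hedgehog genes had a negative difference, between -0.13 and -0.04 log2 units, and overlapped with controls.

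The effects at the different ages were then compared directly. The difference between them was called for 0 of 69 members (limma, lowest adjusted p = 0.583; 0.0% of all genes called), and 9 had an unadjusted p under 0.05, beside 6.84% of all genes. The smallest p belonged to bmp1a (-0.35 ± 0.107 log2 units, 120 minus 48 hpf), bmp3 (-0.44 ± 0.143) and fgf13b (-0.32 ± 0.11). In bmp3 the RFR libraries lay below the controls at 120 hpf, while at 48 hpf they averaged 9.11 ± 0.912 FPKM, against 7.68 ± 1.26 FPKM in control libraries, with overlap. Its change with age was 0.35 ± 0.101 log2 units after RFR, against 0.79 ± 0.101 in controls. Of the members called between ages, 17 rose and 17 fell in both RFR and control embryos and 0 went opposite ways. Of all genes 38.3% rose and 27.9% fell in controls, and 36.1% rose and 29.2% fell after RFR. How many of all genes were called in both, or in 1 alone, was not counted. In controls alone 3 members rose (fgf13a, fgf20a, fgf22) and 2 fell (bmp6, wnt10b). After RFR alone 1 rose (wnt7bb) and 8 fell (bmp1a, bmp2b, fgf10a, fgf10b, fgf13b, fgf3, wnt6b, wnt8b). Of these, wnt6b and wnt8b reached 0.5 FPKM in 4 libraries only at 48 hpf. Quantile normalization lost the call of wnt7bb after RFR and those of fgf13a, fgf20a and fgf22 in controls. Several of the calls made in controls alone or after RFR alone rested on single libraries. In controls fgf20a was lost without control 48 hpf replicate 4. After RFR bmp2b was lost without RFR 120 hpf replicate 3 or 4 or RFR 48 hpf replicate 2, and fgf3 without RFR 120 hpf replicate 2 or RFR 48 hpf replicate 1. The call of wnt8b was lost without RFR 120 hpf replicate 2 or 3 or RFR 48 hpf replicate 1 or 3, and that of fgf10b without any 1 of 6 of the 8 RFR libraries (kept without RFR 120 hpf replicate 2 or RFR 48 hpf replicate 4). Since the difference of the effects was called for none of them, these members are not shown to change differently after RFR.

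The other genes of these pathways were taken from lists of receptors, secreted inhibitors, secretion and processing factors, and target genes. Of 124 genes 122 were tested, and in controls 32 rose and 57 fell with age, with a median of -0.21 log2 units. These are 26.2% and 46.7% of the list, beside 38.3% and 27.9% of all genes. After RFR 23 rose and 61 fell, 18.9% and 50.0% of the list beside 36.1% and 29.2% of all genes. The same shares of all genes stand behind the counts of single lists that follow. The list of Hedgehog receptor genes fell as a group in RNA level. All 7 tested genes of that list, among them smo and the co-receptor gene cdon, were lower at 120 hpf in controls and after RFR, also under both other scalings. The transducer smo averaged 5.43 ± 0.497 FPKM in RFR and 5.08 ± 0.901 FPKM in control libraries at 120 hpf, against 13.8 ± 2.15 FPKM in RFR and 15.3 ± 2.49 FPKM in control libraries at 48 hpf (-1.50 ± 0.137 log2 units in controls; limma adjusted p = 6.71e-08). All 5 neural progenitor markers fell as well in controls, with sums of 66.7 to 76.7 FPKM at 120 hpf, against 210.2 to 277.1 FPKM at 48 hpf, and the part of progenitors in these values was not tested. Of 4 tested Hedgehog targets, gli1, nkx2.2a and nkx2.2b fell by 0.73, 1.13 and 1.87 log2 units in controls.

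Bmp targets were mostly lower at 120 hpf, 10 of 12 in controls with a median of -0.74 log2 units, and 11 after RFR. The homeobox gene msx1b averaged 5.26 ± 0.764 FPKM in RFR and 5.99 ± 0.583 FPKM in control libraries at 120 hpf, against 23.6 ± 2.72 FPKM in RFR and 25.8 ± 3.75 FPKM in control libraries at 48 hpf (-2.01 ± 0.118 in controls; limma adjusted p = 3.13e-10). The inhibitory Smad gene smad7 changed by -1.44 ± 0.144, and id2b was the exception that rose (0.84, named after its values were seen). Secreted Bmp inhibitors leaned the other way, with 8 higher and 3 lower of 15 in controls, led by the follistatin gene fstb at 1.39 ± 0.17. Under quantile normalization this was 4 higher and 7 lower, and after RFR it was 5 higher and 3 lower. Of 19 Wnt receptor genes 12 fell, among them fzd7a (-1.0 ± 0.0918) and fzd3a (-1.12 ± 0.114), and 2 rose. The Wnt carrier gene wls fell by 0.73 ± 0.086. Of 13 tested secreted Wnt inhibitor genes, dkk3a and frzb had the largest rises, 2.35 ± 0.155 and 2.17 ± 0.16. They were named for the smallest p and do not give the direction of the list. Fgf receptors were split, with 3 higher (fgfrl1a, kl, klb) and 3 lower (fgfr1b, fgfr2, fgfr4), and so were Fgf targets, with 5 higher and 2 lower of 12. Of 11 Bmp receptor genes 3 rose, among them acvr2aa (0.54 ± 0.0649), and 7 fell, among them bmpr1aa (-0.62 ± 0.0824). Of 8 tested Wnt targets, those with the smallest p, axin2 and lef1, fell by 0.44 ± 0.077 and 0.62 ± 0.11. These too do not give the direction of their list.

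Between RFR and control 0 of the 122 pathway genes were called by limma at either age; 20 (16.4%) had an unadjusted p under 0.05 at 48 hpf, beside 9.47% of all genes, and 8 (6.56%) at 120 hpf, beside 4.13%. At 48 hpf the genes with the smallest p were the Bmp target id2a, with means of 51.6 ± 5.29 FPKM in RFR and 39.2 ± 4.75 FPKM in control libraries (0.39 ± 0.0883 log2 units; adjusted p = 0.25), and the Wnt target sp5l (0.70 ± 0.201; 0.276). The secreted Wnt inhibitor gene notum1a (-0.41 ± 0.131), the co-receptor gene klb (-0.51 ± 0.161) and the Bmp modulator gene twsg1a (0.33 ± 0.116) had the smallest p of their lists, at adjusted p of 0.322, 0.317 and 0.362. The count depended on 1 library: without RFR 48 hpf replicate 1, 4 genes were called higher in RFR. Over all 23026 genes the count went to 389 (1.69%), of which 350 were higher in RFR, against 1 with all libraries. The 4 pathway genes were fgfbp2b (1.02 log2 units, adjusted p = 0.0193), sp5l (0.92, 0.0208), id2a (0.47, 0.021) and dkk3a (0.63, 0.0356). In replicate 1 the carrier gene fgfbp2b stood at 20.9 FPKM, with 51.1, 61.0 and 58.5 FPKM in the other RFR libraries and 31.7, 19.9, 24.1 and 39.0 FPKM in controls. At 120 hpf the smallest p in their lists belonged among others to sfrp5 (-0.30 ± 0.104), spry4 (0.23 ± 0.0824), bmper (-0.25 ± 0.0896) and lef1 (-0.28 ± 0.11), each at an adjusted p of 1.

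**Figure D5:**
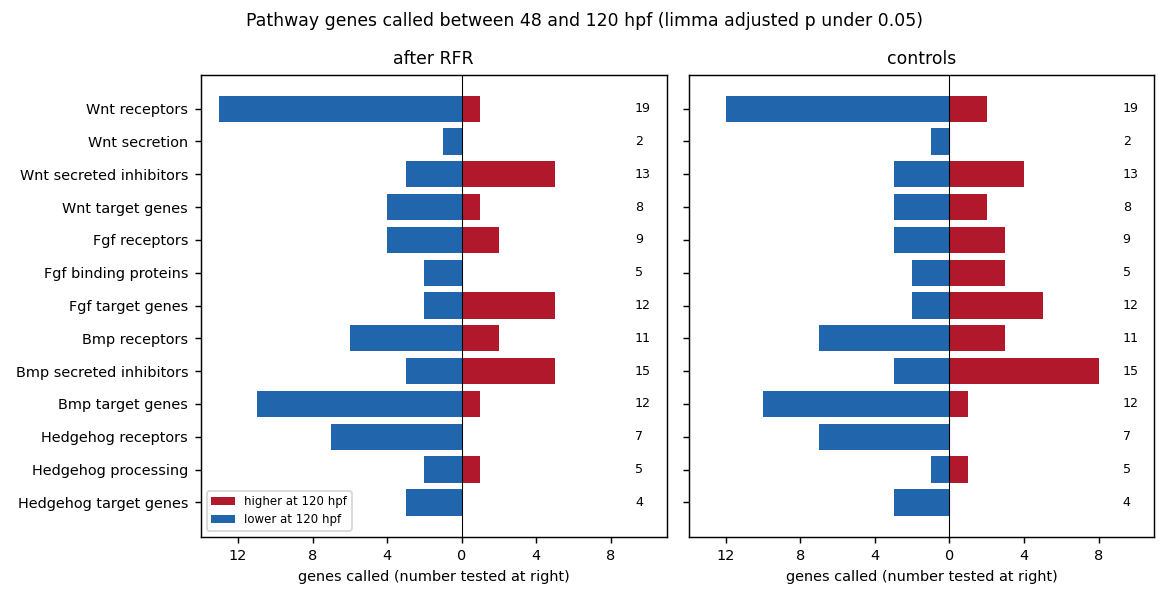
Number of pathway genes called higher (red, right) or lower (blue, left) at 120 than at 48 hpf (limma, adjusted p under 0.05), by list, after RFR and in controls; the number tested stands at the right. Hedgehog receptors (7 of 7 lower) and Bmp targets (10 of 12 lower in controls) lean to one side. Secreted Bmp inhibitors lean to the other in controls (8 of 15 higher), but under quantile normalization more of them were lower than higher.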

How the data were processed

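Total RNA of whole embryos was sequenced, per the labels' protocols, in 16 libraries, 4 in each of 4 groups. The authors deposited FPKM values, given to 2 decimals in 32513 rows, per the file headers. The authors' deposited summaries give the clean read counts, with the mapped and rRNA shares in percent, per the file headers. GRCz11, HISAT2, Bowtie2 and DESeq2 are named, without role or version, in the submitters' processing notes. Which program computed FPKM was not given in the sources used here.

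FPKM are not counts, so limma 3.58.1 (R 4.3.3) was fitted to log2(FPKM + 0.5) with a mean-variance trend. The fit covered 23026 rows that reached 0.5 FPKM in 4 or more libraries and all 4 group means (12 residual degrees of freedom), and was tested on simulated data. Two-sided p-values were adjusted over all rows by the Benjamini-Hochberg method, and a gene counted as called at an adjusted p under 0.05. Fold changes on this scale understate the change of genes at low level. FPKM carry no read counts per gene, so no counting intervals were given.

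The members and lists were chosen with earlier results of these data known. Of 124 pathway genes 118 matched by the table's symbol and 5 through RefSeq, and 1 stayed unmatched. The rule for named genes took, per family, the 3 highest members and the 3 largest called rises and falls with age in controls at 1 FPKM or more. It added the 8 smallest p of each RFR comparison, the 3 of their difference, diverging paralog pairs, and the smallest p of each pathway list. Other genes (dhh, wnt6a, wnt16, bmp5, bmp6, bmp8a, fgf21, fgf6b and those named in lists of calls, losses or filtered members) were named after their values were seen.

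Raw read totals were equal in replicates 1 to 3 and differed in replicate 4 of each group. The main fit had no batch term, and replicate 4 was treated as a batch only among the alternatives. The alternatives were pseudocounts of 0.1 and 1, other filters, quantile and median-ratio scaling, a replicate block, replicates 1 to 3 only, a batch term, library weights, only the groups compared, and leaving out each library.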

Additional observations from a re-analysis of the deposited data

Results flagged for a closer look

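In 180 groups of 4 libraries, each holding the values of 1 tested gene or 1 quality measure, 10 had a library whose gap to the nearest other as a share of the group's range passed Dixon's 95% critical value. Chance gives about 1 in 20. The 180 groups did not take in every tested member. Among the members, fgf4 was highest in RFR 48 hpf replicate 3 (2.42 FPKM), bmp7b in RFR 120 hpf replicate 3 (6.65 FPKM), wnt7bb in RFR 120 hpf replicate 1 (2.59 FPKM) and fgf1b in control 48 hpf replicate 3 (2.47 FPKM). The lowest value stood apart for bmp1a in control 48 hpf replicate 4 (15.76 FPKM) and for fgf23 in control 48 hpf replicate 2, where it is listed at 0. Among the quality measures, clean reads were lowest in RFR 48 hpf replicate 4 (39603976) and highest in control 120 hpf replicate 4 (49232542). The rRNA share was highest in RFR 120 hpf replicate 4 (0.24%) within its group and in control 120 hpf replicate 1 (3.2%) within its own.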

How the results depend on the processing

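Between RFR and control 0 ligand genes were called by limma at either age, or for the difference between the ages, under every alternative run, with 4 to 10 (48 hpf), 1 to 6 (120 hpf) and 5 to 10 (difference) at an unadjusted p under 0.05. Pathway genes called at 48 hpf numbered 0, and 4 without RFR 48 hpf replicate 1 (0 to 4 over single libraries left out), where calls over all genes went to 389. Members called between ages numbered 39 in controls (36 to 48 under other settings, 37 to 40 without single libraries) and 43 after RFR (37 to 49, and 37 to 44). After RFR quantile normalization gave 12 higher and 37 lower. With replicates 1 to 3 only the split was 18 and 18 in controls and 17 and 20 after RFR. Same-numbered RFR and control libraries deviated together in part, with correlations of -0.11, -0.04, 0.15 and 0.31 at 48 hpf and 0.18, 0.058, 0.28 and 0.27 at 120 hpf. Not all passed 0.1, and not every library correlated best with its own number, so the numbers were not taken as pairs. The replicate block gave 0 called members in each RFR comparison, 39 in controls and 42 after RFR. Among the genes named by rule, the uncalled change with age in controls reversed sign in 10 cases, spread over 5 genes. Reversals of other members were not listed. Of the 69 tested members, 32 had a positive change in controls in the main fit and 22 under quantile normalization. The 5 genes named by rule that reversed included fgf13b (0.0084 without control 120 hpf replicate 3, range -0.101 to 0.0084 over single libraries left out). Among the 5 were also bmp1a (-0.0846 under median-ratio scaling and -0.00166 without control 48 hpf replicate 4, range to 0.0612) and fgf18a (-0.26 under quantile normalization). The others were fgf1b (0.0469 without control 48 hpf replicate 3 and 0.0808 without control 120 hpf replicate 1; lowest -0.112) and ihhb (0.0185 under library weights; 0.0238, 0.108 and 0.0900 without control 48 hpf replicate 1, control 48 hpf replicate 2 and control 120 hpf replicate 3; lowest -0.146). Beyond what the construction of each setting shows, the cause was not tested. The median member's 95% interval of 0.33 log2 units limits what an RFR comparison could show.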
